A study of Mus musculus with 6 samples.

Results

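The genes described here encode the vacuolar proton pump (V-ATPase), the cathepsins and the lysosomal membrane proteins *Lamp1* and *Lamp2*. They were the protein-coding genes of the deposited table whose GENCODE M21 symbol begins with *Atp6v0* or *Atp6v1*, is *Atp6ap1* or *Atp6ap2*, is *Cts* followed by a single letter, or is *Lamp1* or *Lamp2*. The rule left out *Atp6v1b1*, *Atp6v0d2* and *Atp6v1g3*, and it used no expression value. It gave 42 of the 54532 genes in the table. These were 21 V-ATPase genes, 18 cathepsin genes, both Lamp genes and *Atp6v1fnb*, a neighbour of *Atp6v1f* that shares its symbol's beginning and is not a pump subunit. Of the 42 genes, 35 had enough reads to be tested and 7 did not.

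The V-ATPase is a rotary machine. Its V1 sector hydrolyses ATP in the cytosol, and its V0 sector carries protons through the membrane, so that lysosomes and endosomes become acidic. Cathepsins are proteases made as inactive precursors, and most of them mature and work at the acidic pH of the lysosome. Lamp proteins coat the inner face of the lysosomal membrane. In the kidney, the proximal tubule takes up filtered proteins and digests them in an extensive lysosomal system. The intercalated cells of the collecting duct place the same pump on the cell surface and in vesicles to secrete acid, and they use a few subunits of their own.

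Whole kidneys of mice with the KsprtTA transgene alone (Control) and with KsprtTA and TRE-adiponectin (KSPAPN) were compared. Each group had 3 libraries, and 3 mice were pooled for each. Both groups carried the reverse tetracycline transactivator under the Ksp promoter, which is active in the epithelium of kidney tubules, and both ate chow with doxycycline at 600 mg/kg for 4 days. In the labels the Control genotype reads WT, and the tissue is kidney although the extraction text mentions liver. The mice were males with a C57BL/6 background, and no source used here gives their age. The comparison asks how the kidney transcriptome differs when tubular epithelium is made to express adiponectin, and the replicates are pools, so that their spread is a spread between pools.

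*Adipoq*, the gene that was overexpressed, had 2, 0 and 2 reads in the Control libraries and 24629, 17483 and 26811 in the KSPAPN libraries, as the labels say. The libraries held between 17183358 and 20871173 reads counted on genes. The proximal tubule markers *Slc34a1*, *Slc27a2* and *Lrp2* and the thick limb marker *Umod* were abundant in both groups. Their mean FPKM (fragments scaled by gene length and by a factor for each library) was 1212, 958, 122 and 678 in Control. In whole kidneys, fewer cells of a type and less RNA per cell cannot be told apart.

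Many lysosomal genes carry a motif near their start, known as the CLEAR element, to which the transcription factor TFEB and its relatives bind. Its core letters are TCACGTGA, around the E-box CACGTG, and a longer, stricter form adds a base on each side. All of them are palindromes and read the same on both strands, and each TCACGTGA holds a CACGTG. RefSeq promoters (GRCm38.p6, 250 bases before to 50 bases after the start) were found for 33 of the 42 genes. TCACGTGA was in 5 of these 33 genes (15.2%, 95% Wilson interval 6.65% to 30.9%), namely *Atp6v0d1*, *Atp6v0e*, *Atp6v1a*, *Ctsa* and *Ctsd*, and in 304 of all 27025 genes with a promoter (1.12%). CACGTG was in 9 of 33 (27.3%, 15.1% to 44.2%), which adds *Atp6v0b*, *Ctsf*, *Ctsl* and *Lamp1*, against 8.09% of all genes. The longer form was in 0 of 33 against 0.37% of all. The stretches below are shown because they hold the motif in abundant genes of each class (pump, protease and membrane protein). They run 5′ to 3′ on the strand of the gene, with the motif in capitals, and lie at chr8:13159091-13159160 (+, *Lamp1*), chr7:142387898-142387957 (-, *Ctsd*), chr2:164833713-164833772 (+, *Ctsa*), chr16:44139360-44139419 (-, *Atp6v1a*), chr8:105566061-105566124 (-, *Atp6v0d1*) and chr4:117887330-117887389 (-, *Atp6v0b*).
Lamp1: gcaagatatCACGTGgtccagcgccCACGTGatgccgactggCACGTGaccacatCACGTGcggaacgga
Ctsd: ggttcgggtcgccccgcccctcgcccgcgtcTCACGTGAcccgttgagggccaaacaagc
Ctsa: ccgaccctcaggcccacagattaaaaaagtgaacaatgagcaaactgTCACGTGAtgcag
Atp6v1a: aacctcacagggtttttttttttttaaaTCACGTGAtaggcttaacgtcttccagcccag
Atp6v0d1: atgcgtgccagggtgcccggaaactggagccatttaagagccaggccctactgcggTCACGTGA
Atp6v0b: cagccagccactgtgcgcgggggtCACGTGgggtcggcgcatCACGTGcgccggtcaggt

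*Lamp1* holds 4 CACGTG within 70 bases, *Atp6v0b* holds 2, and the motif of *Atp6v0d1* runs over the RefSeq start of the gene, upstream of its GENCODE M21 start. The 5 genes with TCACGTGA had log2 fold changes (KSPAPN against Control) between -0.10 and -0.04, with a median of -0.068, and the 21 tested genes whose promoter lacks it had a median of 0.012. These values are a description without a test.

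None of the proton pump, cathepsin or Lamp genes passed an adjusted p of 0.05 between KSPAPN and Control in edgeR's quasi-likelihood test, with Benjamini-Hochberg adjustment over all 16017 genes tested. Of all genes tested, 2.65% passed, 0.393% higher and 2.25% lower in KSPAPN. At an unadjusted p under 0.05 there were 3 higher and 4 lower of the 35, or 7 in all, against 18.7% of all genes (7.52% higher and 11.2% lower). CPM are counts scaled by library size and by the TMM normalization factor of each library. The libraries of the groups did not overlap on CPM in 9 of the 35 (25.7%), 5 higher and 4 lower, against 24.5% of all genes (11.4% and 13.1%). The share that did not overlap was close to that of all genes, and 7 of 35 is close to 18.7%.

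DESeq2 called 1 of the 35 at an adjusted p under 0.05, the lower *Atp6v0a4*, against 6.33% of the genes to which it gave an adjusted p. At an unadjusted p, DESeq2 had 3 higher and 2 lower, against 16.3% of all genes tested. With limma on log2(FPKM + 1), 0 passed the adjusted threshold, against 0.799% of all genes, and 3 higher and 5 lower passed the unadjusted one, against 17.8%. The number higher at an unadjusted p depended on the setting, for these genes and for all genes. It was 6 with total counts (12.8% of all genes), 5 with a replicate block (10.6%), 6 after removal of a trend with GC content and length (9.24%) and 7 with both (10.4%). With total counts 2 were lower (7.65% of all genes).

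Log2 fold changes of the 35 genes had a median of 0.0010, with 18 above 0 and 17 below, and those of all genes tested had a median of 0.012. The typical size of a difference, as the median absolute log2 fold change, was 0.086 for the 35 genes and 0.193 for all genes. Their median SE was 0.096, against 0.160 for all genes, so these genes were also measured more precisely than most. For 30 of the 35, the 95% interval of the difference lay within 1.5-fold in either direction, and for 33 within 2-fold. Among the 28 genes at or above a mean of 10 FPKM, the intervals reached from a 36.1% lower to a 47.8% higher level. The plot of differences shows these intervals gene by gene.

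**Figure D1:**
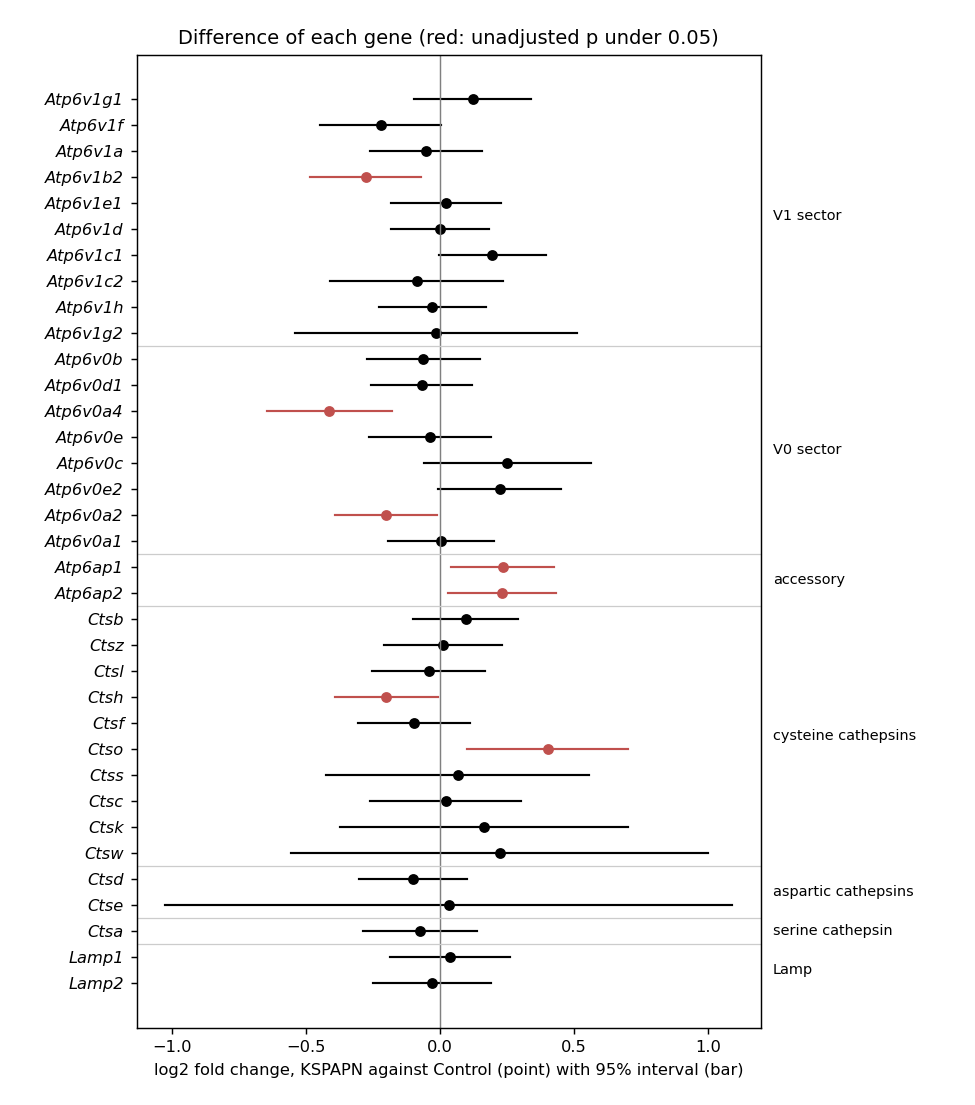
Log2 fold change of KSPAPN against Control for the 35 genes tested (horizontal axis; points are edgeR estimates, bars 95% intervals), grouped by role and ordered by level. The 7 genes in red had an unadjusted p under 0.05, 4 lower and 3 higher in KSPAPN, and 0 passed the adjusted threshold.

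Levels covered a wide range. *Lamp1* was the most abundant of the 42 genes by FPKM, with 442, 481 and 456 in Control and 438, 513 and 461 in KSPAPN. Next by mean FPKM came *Atp6v1g1*, *Ctsd*, *Atp6v1f*, *Ctsb*, *Atp6v0b*, *Ctsz*, *Atp6v1a*, *Atp6ap1* and *Lamp2*, and 7 of the 35 tested genes were under 10. The summed FPKM of all 42 genes was between 2062 and 2172 in Control and between 2042 and 2140 in KSPAPN. The sums of the groups overlapped. For the V-ATPase genes the sums were 997 to 1044 and 995 to 1011, and for the cathepsins 549 to 567 and 528 to 555.

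**Figure D2:**
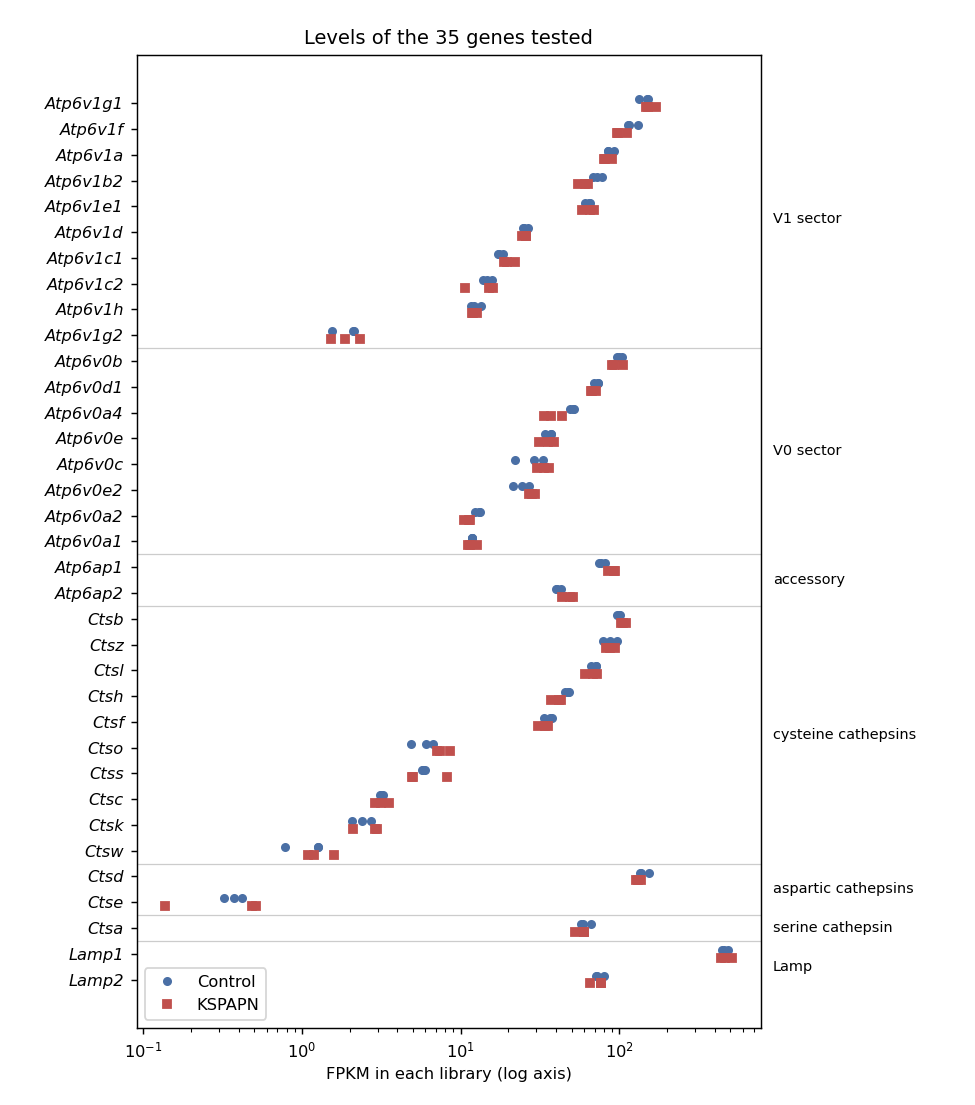
FPKM of the 35 genes tested in each library (horizontal log axis; circles are the 3 Control libraries, squares the 3 KSPAPN libraries), grouped by role. *Lamp1* lies above 400 in every library, while *Ctse* lies below 1, and most genes have overlapping groups.

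The V1 sector is built of a ring of A and B subunits that binds and splits ATP, a central stalk and outer stalks. Of the 11 V1 genes, 10 were tested, with 4 log2 fold changes above 0, 6 below and a median of -0.021. *Atp6v1a*, the catalytic A subunit, had FPKM of 84.7, 93.0 and 85.3 in Control and 81.7, 80.5 and 90.5 in KSPAPN. Its groups overlapped, and its log2 fold change was -0.05 (SE 0.094, adjusted p = 0.812).

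*Atp6v1b2* encodes the B subunit that most cells use. Its FPKM was 72.1, 77.4 and 68.7 in Control and 54.9, 63.6 and 61.01 in KSPAPN, so that every KSPAPN library lay below every Control library. The log2 fold change was -0.28 (SE 0.094, 95% interval -0.48 to -0.07), with an adjusted p of 0.148. *Atp6v1b1*, the B subunit of intercalated cells that the rule left out, had FPKM of 26.6, 25.7 and 26.0 in Control and 20.5, 23.1 and 26.0 in KSPAPN (log2 fold change -0.16, SE 0.098, adjusted p = 0.402). *Atp6v1b2* held 73.6% ± 1.35 (SD, n = 3) of the summed FPKM of both B genes in Control and 72.1% ± 1.73 in KSPAPN, and the groups overlapped.

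Stalk subunits had values on both sides of 0, and none of them passed the adjusted threshold in edgeR. *Atp6v1g1*, the G subunit found in most tissues, had FPKM of 133, 150.5 and 150.2 in Control and 170.3, 152 and 148 in KSPAPN (log2 fold change 0.12, SE 0.098, adjusted p = 0.546), and the log2 fold change was 0.26 after the GC and length trend was removed. *Atp6v1f*, the F subunit of the central stalk, had 131, 115 and 113 in Control and 112, 96.3 and 98.0 in KSPAPN. The libraries of *Atp6v1f* were separate on FPKM and overlapped on CPM (log2 fold change -0.22, SE 0.102, adjusted p = 0.278), and after removal of the trend with GC content and length the log2 fold change was -0.0038. *Atp6v1c1*, the common C subunit, was at 17.4, 18.5 and 17.2 in Control and 18.8, 22.2 and 19.6 in KSPAPN, with no overlap (log2 fold change 0.20, SE 0.090, adjusted p = 0.279). *Atp6v1e1*, *Atp6v1d*, *Atp6v1c2*, *Atp6v1h* and *Atp6v1g2* overlapped between groups, with log2 fold changes from -0.09 to 0.02. The summed FPKM of the V1 genes was 554, 575 and 553 in Control and 545, 540.1 and 538 in KSPAPN, separate between the groups. This sum was not tested, and its means were 560 in Control and 541 in KSPAPN. Means of *Atp6v1f* were 120 and 102 and those of *Atp6v1b2* 72.7 and 59.8, while 4 of the 10 tested V1 genes had log2 fold changes above 0.

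In the V0 sector, a ring of c subunits turns against the large a subunit, which holds the proton path. All 8 V0 genes were tested, with 3 log2 fold changes above 0, 5 below and a median of -0.048. *Atp6v0b*, a member of the proton-carrying ring, had FPKM of 96.8, 105 and 99.8 in Control and 105, 93.1 and 89.2 in KSPAPN (log2 fold change -0.06, SE 0.096, adjusted p = 0.780). *Atp6v0c*, the main ring subunit, had the highest log2 fold change of the V-ATPase genes, 0.25 (SE 0.141, adjusted p = 0.369), and its groups overlapped. Of the 100-base stretches of *Atp6v0c* transcripts, 10.3% also occur in a pseudogene, *Atp6v0c-ps2*, so reads may be split between them. *Atp6v0d1*, *Atp6v0e*, *Atp6v0e2* and *Atp6v0a1* overlapped as well, with log2 fold changes from -0.07 to 0.22.

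*Atp6v0a4* encodes the a4 subunit, which in the kidney is known from the acid-secreting intercalated cells and from the proximal tubule, and whose loss causes distal renal tubular acidosis. It had the largest difference of the V-ATPase genes and the smallest p of the 35 tested genes. Its FPKM was 51.4, 48.8 and 52.0 in Control and 33.3, 37.3 and 43.4 in KSPAPN, without overlap. The mean was 50.8 ± 1.68 (SD, n = 3) in Control and 38.0 ± 5.07 in KSPAPN, a log2 fold change of -0.41 (SE 0.105, 95% interval -0.65 to -0.18), which did not pass the adjusted threshold in edgeR (adjusted p = 0.0706). The call depended on the processing. The adjusted p was 0.0117 in DESeq2, 0.0044 in edgeR without a filter on low counts (4.55% of 29418 genes passed there), 0.0341 with replicate number as a block (5.8% of genes passed) and 0.0433 with the block after removal of the GC and length trend (4.24%). Without the filter the log2 fold change (-0.42) and SE (0.108) were close to those with it. The unadjusted p of the edgeR test was nevertheless 0.00011 there and 0.0026 with the filter. That call therefore does not rest on a larger or more precise difference. When single libraries were left out the log2 fold change was between -0.51 and -0.31 and the adjusted p between 0.0905 and 0.247.

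Genes for the a subunit were also compared as shares of the summed FPKM of *Atp6v0a1*, *Atp6v0a2*, *Tcirg1* (the a3 subunit, known from osteoclasts and lysosomes) and *Atp6v0a4*. *Atp6v0a4* held 60.3%, 59.2% and 60.9% in Control and 47.3%, 53.7% and 57.4% in KSPAPN. *Tcirg1* held 10.6%, 10.7% and 11.01% in Control and 18.5%, 14.6% and 13.0% in KSPAPN. *Atp6v0a1* held 13.8%, 14.2% and 13.8% in Control and 18.0%, 16.6% and 14.6% in KSPAPN, while its own mean level was 11.7 FPKM in both groups (log2 fold change 0.0046, adjusted p = 0.987 in edgeR). These 3 shares did not overlap between the groups, and that of *Atp6v0a2* did. In a two-sided exact permutation test over the 20 arrangements of the libraries each of the 3 had p = 0.1, the smallest that 3 libraries against 3 can give, and 0.34 after Benjamini-Hochberg adjustment over the 17 shares computed for a, B, C, d, e, E and G subunits. Of the others, those of *Atp6v0e* (lower) and *Atp6v0e2* (higher) also did not overlap, with the same p. The shares of a subunit sum to 100%, so they do not vary independently.

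**Figure D3:**
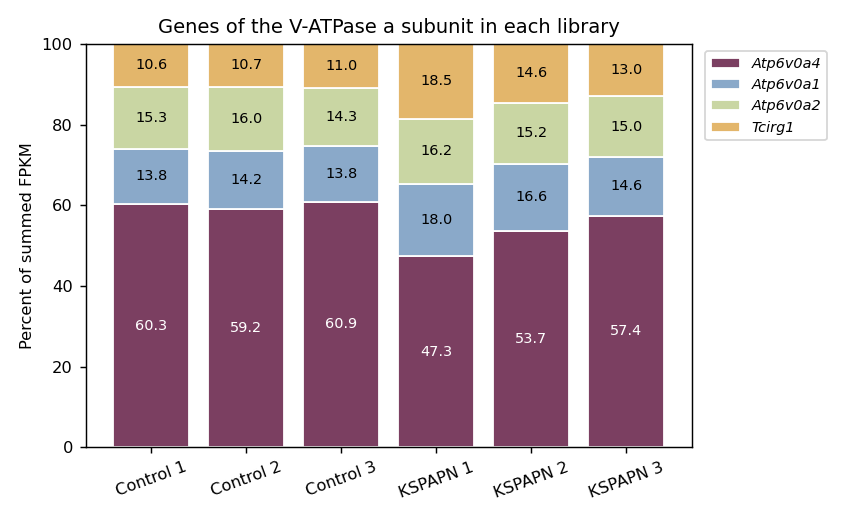
Share of each a subunit gene in the summed FPKM of *Atp6v0a1*, *Atp6v0a2*, *Tcirg1* and *Atp6v0a4* (vertical axis, percent) in each of the 6 libraries, as stacked bars with the percent printed in each block. *Atp6v0a4* takes 59.2% to 60.9% in Control and 47.3% to 57.4% in KSPAPN.

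Levels of *Atp6v0a2*, a subunit known from the Golgi and endosomes, were 13.0, 13.2 and 12.2 FPKM in Control and 11.4, 10.5 and 11.4 in KSPAPN. They did not overlap (log2 fold change -0.20, SE 0.086, adjusted p = 0.247). Of its 100-base stretches, 9.0% occur also in the transcripts of a gene on the opposite strand, and the strandedness of the counts is not given in the sources used here.

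Markers of cells rich in the pump are given beside *Atp6v0a4* and *Atp6v1b2*, because several of them were lower in KSPAPN as well. Of 10 intercalated cell markers, all tested and none at 0, 3 had a log2 fold change above 0 and 7 below (median -0.031, range -1.04 to 0.35). *Rhbg*, an ammonia channel, passed the adjusted threshold (log2 fold change -1.04, SE 0.198, adjusted p = 0.0264), though 61.4% of its exon bases overlap *Gm38392* on the same strand, so its reads cannot be assigned with certainty. *Slc4a1*, the anion exchanger of acid-secreting intercalated cells, had FPKM of 10.01, 9.20 and 8.47 in Control and 3.96, 7.77 and 5.25 in KSPAPN (log2 fold change -0.71, adjusted p = 0.0893). *Aqp6* (-0.57) and *Rhcg* (-0.35) did not overlap either, with adjusted p of 0.124 and 0.061, while *Foxi1* (-0.02) and *Slc26a4* (0.20) overlapped. The summed FPKM of the 10 markers was between 162 and 170.05 in Control and between 136 and 152 in KSPAPN.

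Of 12 proximal tubule markers, all tested and none at 0, 2 were above 0 and 10 below (median -0.22), and *Slc22a6* (log2 fold change -0.46, adjusted p = 0.0388) and *Slc7a13* (-1.46, adjusted p = 0.0259) fell. Their summed FPKM was 3538 to 4003 in Control and 3139 to 3415 in KSPAPN. Of 3 thick limb markers, all tested and none at 0, 2 were above 0 and 1 below (median 0.17). *Slc12a1* rose (log2 fold change 0.52, SE 0.114, adjusted p = 0.0437), while *Umod* (-0.04, adjusted p = 0.903) and *Cldn16* (0.17, adjusted p = 0.693) overlapped between groups, as did the summed FPKM of the list (825 to 939 in Control and 826 to 1110.0 in KSPAPN). The part of these markers in the pump genes' values was not tested.

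The 2 accessory proteins, which help to assemble the pump and link it to other processes, were both higher in KSPAPN as values. *Atp6ap1* had FPKM of 76.4, 81.3 and 74.6 in Control and 85.1, 94.4 and 93.0 in KSPAPN. Its log2 fold change was 0.24 (SE 0.087, 95% interval 0.04 to 0.43, adjusted p = 0.180). After removal of a trend with GC content and length, the log2 fold change was 0.35 and the adjusted p 0.0434 (2.48% of all genes passed there). *Atp6ap2*, also called the prorenin receptor, had 40.2, 43.1 and 39.7 in Control and 43.5, 49.0 and 51.4 in KSPAPN (log2 fold change 0.23, SE 0.091, adjusted p = 0.207). Neither gene's groups overlapped, and both are X-linked genes without stretches shared with other genes.

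**Figure D4:**
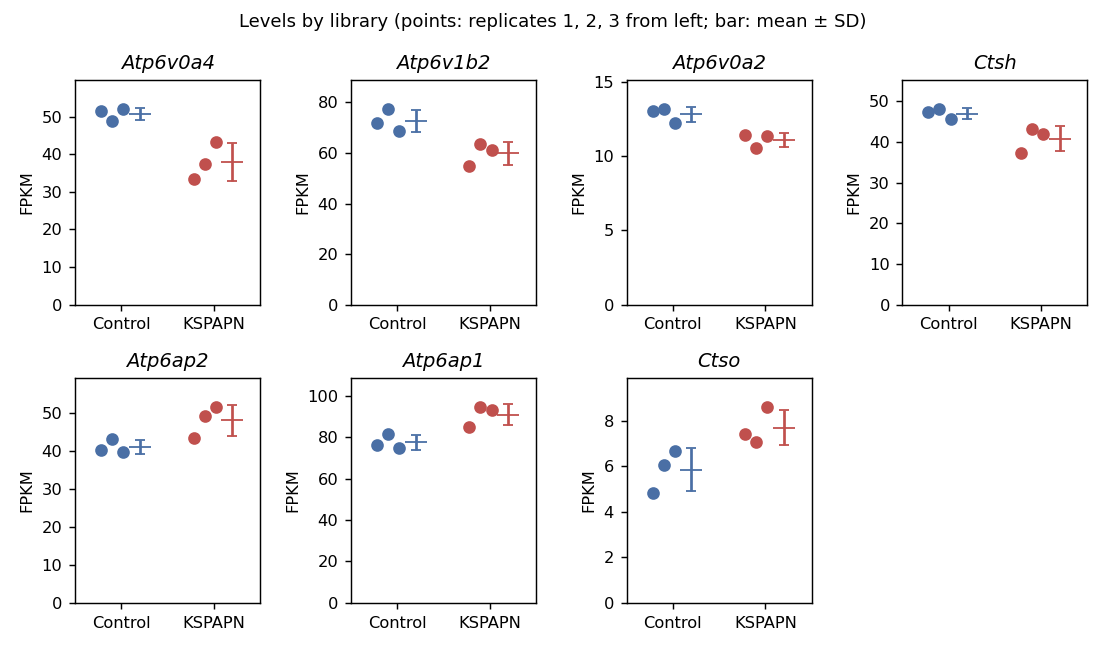
FPKM (vertical axes, each from 0) of the 7 genes with an unadjusted p under 0.05, by library, with the mean and SD of each group beside the points. The KSPAPN libraries lie below all Control libraries for *Atp6v0a4*, *Atp6v1b2*, *Atp6v0a2* and *Ctsh*, and above them for *Atp6ap2*, *Atp6ap1* and *Ctso*.

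Among the 14 cysteine cathepsins, 10 were tested, with 7 log2 fold changes above 0, 3 below and a median of 0.044. *Ctso*, a cysteine cathepsin of low level in kidney, had the highest value of all 35 genes. Its FPKM was 4.83, 6.03 and 6.69 in Control and 7.43, 7.08 and 8.58 in KSPAPN, without overlap (log2 fold change 0.40, SE 0.135, 95% interval 0.10 to 0.70, adjusted p = 0.145). Without a filter on low counts its adjusted p was 0.0486, at a nearly equal log2 fold change (0.40) and SE (0.131). *Ctsh*, an aminopeptidase, had FPKM of 47.3, 48.1 and 45.6 in Control and 37.3, 43.1 and 41.9 in KSPAPN (log2 fold change -0.20, SE 0.087, adjusted p = 0.255). Its libraries did not overlap.

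The abundant cysteine cathepsins lay close together in both groups. *Ctsb*, which cuts both within and at the ends of proteins, had 96.6, 102 and 99.99 in Control and 106, 103 and 109 in KSPAPN. Its groups did not overlap, yet the log2 fold change was 0.10 (SE 0.089, adjusted p = 0.606), and 14.5% of its stretches are shared with *Fdft1* on the opposite strand. *Ctsz*, a carboxypeptidase, had 78.5, 87.6 and 96.5 in Control and 87.7, 93.3 and 82.9 in KSPAPN (log2 fold change 0.01, 95% interval -0.21 to 0.23, adjusted p = 0.967), and 0.22 after removal of the trend with GC content and length (adjusted p = 0.335). *Ctsl*, a major endopeptidase of lysosomes, and *Ctsf* overlapped between groups at log2 fold changes of -0.04 and -0.10, and 25.4% of the stretches of *Ctsl* are shared with *Gm47123* and *Gm49230*.

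*Ctss*, *Ctsc*, *Ctsk* and *Ctsw*, the first a protease of antigen-presenting cells, the third of osteoclasts and the last of cytotoxic lymphocytes, were at mean FPKM between 1.11 and 6.06 and overlapped between groups. *Ctss* was 8.22 in KSPAPN replicate 1 and between 4.96 and 5.99 in the other libraries. Of 16 macrophage and leukocyte markers, 8 were highest in KSPAPN replicate 1. The others were highest in Control replicates 1, 2 and 3 (2, 3 and 2 markers) and in KSPAPN replicate 3 (1 marker). Their summed FPKM was 67.0, 75.2 and 73.6 in Control and 87.8, 57.9 and 66.6 in KSPAPN. Of these markers 15 were tested, with 0 passing the adjusted and 0 the unadjusted threshold in edgeR and a median log2 fold change of 0.055. The part of leukocytes in the value of *Ctss* was not tested.

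*Ctsd*, the main aspartic protease of lysosomes, had FPKM of 134, 153 and 137 in Control and 126, 137 and 131 in KSPAPN. Its log2 fold change was -0.10 (SE 0.091, 95% interval -0.30 to 0.10, adjusted p = 0.604), and the groups overlapped. Reads of *Ctsd* are uncertain, because 35.01% of its stretches are shared with *Gm49369*, whose exons overlap it on the same strand. *Ctse*, an aspartic protease of gut and immune cells, was at a mean FPKM of 0.372 in Control and 0.378 in KSPAPN. *Ctsa*, the serine carboxypeptidase that also protects beta-galactosidase and neuraminidase, had a log2 fold change of -0.07 (SE 0.096, adjusted p = 0.734). Of the stretches of *Ctsa*, 11.6% are shared with *Neurl2* and *Pltp*.

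*Lamp1* and *Lamp2* did not pass the threshold, and their groups overlapped. The log2 fold change of *Lamp1* was 0.04 (95% interval -0.18 to 0.26), and 0.16 after removal of the trend with GC content and length. *Lamp2*, which is needed for autophagosomes to mature, had FPKM of 72.7, 79.5 and 71.7 in Control and 65.6, 76.6 and 76.4 in KSPAPN (log2 fold change -0.03, SE 0.099, 95% interval -0.25 to 0.19). Their intervals in edgeR leave out changes of 1.5-fold in either direction.

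The 7 genes that were not tested had few or no reads. *Ctsg* (a neutrophil protease) and *Ctsj*, *Ctsq*, *Ctsr* and *Ctsm* (cathepsins of the rodent placenta) had 0 reads in all 6 libraries, and *Atp6v1e2*, the E subunit of testis, had 1 read in Control replicate 3. A count of 0 allows up to 3 reads per library. *Atp6v1fnb* had 1, 0 and 1 reads in Control and 0, 4 and 7 in KSPAPN.

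Other genes of the same system were compared in the same edgeR test. Among 13 further V-ATPase genes (assembly factors, regulators and *Tcirg1*), 10 had log2 fold changes above 0 and 3 below (median 0.10), and 0 passed the adjusted threshold in edgeR. *Tcirg1* (log2 fold change 0.28, adjusted p = 0.254) and *Oxr1*, which is known to bind the pump (0.33, adjusted p = 0.092), were at an unadjusted p under 0.05. *Atp6v0d2* (0.16, adjusted p = 0.634) and *Atp6v1g3* (0.14, adjusted p = 0.580), intercalated cell subunits, overlapped between groups.

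Of 40 lysosomal hydrolases outside the cathepsins, 18 were above 0 and 22 below (median -0.028), and 2 passed the adjusted threshold, both lower. *Ppt2*, a thioesterase, fell from 33.5, 32.8 and 29.3 FPKM in Control to 21.3, 23.2 and 20.9 in KSPAPN (log2 fold change -0.54, SE 0.091, adjusted p = 0.0176). However, 36.6% of its exon bases overlap *Gm20460* on the same strand. *Hyal2*, a hyaluronidase, fell from 17.9, 16.7 and 20.3 to 13.7, 13.8 and 12.3 (log2 fold change -0.46, SE 0.103, adjusted p = 0.0451). At an unadjusted p under 0.05, 6 hydrolases were lower and 3 higher (22.5% of the 40, against 18.7% of all genes tested). They included *Glb1* (beta-galactosidase, -0.23, adjusted p = 0.180) and *Asah1* (acid ceramidase, 0.30, adjusted p = 0.0937).

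Of 20 lysosomal membrane proteins and transporters, 15 were above 0 and 5 below (median 0.14). *Slc36a1*, a proton-coupled amino acid transporter, fell from 30.1, 30.4 and 26.8 FPKM to 18.5, 23.1 and 21.8 (log2 fold change -0.46, SE 0.101, adjusted p = 0.0448), and it was the only one of the 20 to pass the adjusted threshold in edgeR. *Laptm4a* (0.22), *Mfsd8* (0.39) and *Npc1* (0.28) were at an unadjusted p under 0.05, with adjusted p of 0.180, 0.233 and 0.260. Of 9 genes that sort enzymes to the lysosome, 3 were above 0 and 6 below (median -0.012), with 0 passing the adjusted threshold and *Sort1* (0.37, adjusted p = 0.248) at an unadjusted p under 0.05. The plot of the lists shows these genes beside the pump and cathepsin genes.

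**Figure D5:**
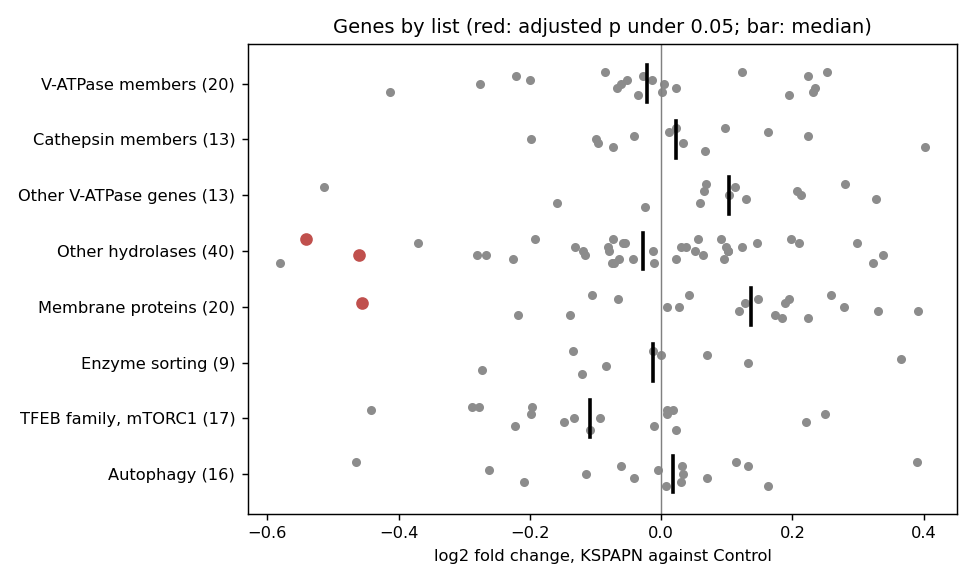
Log2 fold change of KSPAPN against Control (horizontal axis) for each tested gene of 8 lists, with the number tested in brackets and the median as a bar. The genes in red, *Ppt2*, *Hyal2* and *Slc36a1*, passed the adjusted threshold and lie between -0.54 and -0.46, and the medians lie between -0.11 and 0.14.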

How the data were processed

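RNA of whole kidneys was enriched for mRNA with oligo(dT) beads and sequenced. The authors deposited a table with raw counts of reads per gene, without normalization, and FPKM. Between libraries, the ratio of count to FPKM of a gene did not follow the library totals, so FPKM hold a further scaling factor. No source used here gives that factor. The submitters' processing notes name STAR 2.5, TopHat, HTSeq 0.6.1, DESeq2 and edgeR without roles, and no source used here gives the genome build or the strandedness. Library totals were 17183358 to 20871173 reads. The libraries have no molecular identifiers, so the bound on reads given for genes without reads covers counting error only. The intervals of log2 fold changes come from the edgeR fit and include the spread between pools. Groups came from the sample labels.

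GENCODE M21 (GRCm38) gave symbols, biotypes and coordinates, and 54495 of 54532 gene identifiers matched. The genes and lists were chosen with earlier results of these data known. Counts were tested with edgeR 4.0.16 in R 4.3.3 (TMM normalization, minimum count 10, minimum total 15, two-sided quasi-likelihood test, Benjamini-Hochberg adjustment over 16017 genes). FPKM served for levels, sums and shares. Reads that could belong to more than one gene were judged by the share of 100-base stretches of a gene's transcripts found in other genes' transcripts, and by overlapping exons.

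Values in every library are given for genes of the rule at an unadjusted p under 0.05, for the 10 with the highest mean FPKM and for those past the adjusted threshold under an alternative. Of other lists, genes past the adjusted threshold are named by rule, and further genes named there were chosen after their values were seen, as were *Ctss* and *Atp6v1c1*. Lists were V-ATPase genes outside the rule, hydrolases, membrane proteins, sorting, TFEB and mTORC1, autophagy, cathepsin inhibitors, and markers of intercalated, proximal tubule and thick limb cells and of macrophages. One further list of markers is not reported here.

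Alternatives were DESeq2 1.42.0, RLE factors, total counts, no filter on low counts, limma 3.58.1 on log2(FPKM + 1) and log2(FPKM + 0.1), a normalization that left out *Adipoq* and the mitochondrially encoded genes, a block for replicate number, removal of a GC and length trend (splines with 5 degrees of freedom), both together, and each library left out in turn. The edgeR, DESeq2 and limma steps were tested on simulated counts with 200 changed genes. Those genes changed by at least 2-fold, and every gene had the same dispersion. No GC, length or replicate effect was added. The shares below therefore check the steps and do not give the share of false calls in these libraries. At an adjusted p under 0.05, 5.64% of the calls were false with edgeR and 6.6% with the replicate block. The share was 8.95% with DESeq2, 5.61% with the GC and length trend removed and 6.25% with limma. Tables and plots used Python 3.11.15, pandas 2.3.3 and matplotlib 3.10.9.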

Additional observations from a re-analysis of the deposited data

How the results depend on the processing

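With 3 pools per group, the 95% interval stayed within 1.5-fold for 27 of the 28 genes at 10 FPKM or more and went beyond it for several of the 7 below. For the 16 genes described by library, 237 values under the 16 alternatives kept direction and side of the threshold, 12 changed direction and 7 passed the adjusted threshold. Genes lower at an adjusted p under 0.05 numbered 1 with DESeq2, without a filter, with the replicate block and with the block and the GC trend removed, in each case *Atp6v0a4* (adjusted p = 0.0117, 0.0044, 0.0341 and 0.0433). Genes higher numbered 1 without a filter (*Ctso*, adjusted p = 0.0486) and with the GC trend removed without or with the block (*Atp6ap1*, adjusted p = 0.0434 and 0.0341). For *Atp6v0a4* and *Ctso*, the edgeR fit without a filter gave smaller p-values than the main fit at nearly equal differences and SE. At an unadjusted p, 2 were lower with DESeq2 and with total counts (7.65% of all genes with the latter). In the other direction, 6 were higher with total counts, 5 with the block, 6 with the GC trend removed and 7 with both. The shares of all genes higher were 12.8%, 10.6%, 9.24% and 10.4% in the same order. With each library left out in turn, 0 to 5 were higher (0 without Control replicate 1 or KSPAPN replicate 3) and 1 to 4 lower (1 without Control replicate 2), against 4.04% to 9.58% and 7.93% to 12.2% of all genes. The cause was not tested.

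Median log2 fold changes of all 35 genes, the V-ATPase genes and the cathepsins were 0.070, 0.046 and 0.092 with total counts, which moved the median of all genes to 0.081. They were 0.090, 0.076 and 0.090 with the GC trend removed, and 0.060, 0.067 and 0.060 with the block added. The cathepsin median was between -0.025 and 0.057 with each library left out. Directions of small differences turned with total counts for *Lamp2* (0.037), *Atp6v1a* (0.018) and *Atp6v0b* (0.012), and with the GC trend removed, without and with the block, for *Ctsd* (0.051 and 0.053) and *Atp6v0b* (0.15 and 0.15). The same removal took *Atp6v1f* to -0.0038 and -0.0052 and *Ctsz* to 0.22 in both. With each library left out they also turned for *Ctsz* (-0.063 to 0.092), *Lamp2* (-0.061 to 0.051) and *Lamp1* (-0.021 to 0.099). The longer motif was in 0% of the promoters.

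Replicate numbers are shared by the groups, but correlations of deviations between same-numbered libraries were 0.052, 0.144 and 0.170, so the numbers were not taken to pair the libraries. Every Control library correlated best with the KSPAPN library of its own number, a hint from the data and not from the design.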

Other observations

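Genes that regulate lysosomes and autophagy were compared in the same edgeR test. Of 17 genes of the TFEB family and of mTORC1, the kinase complex that senses nutrients at the lysosome, 6 had a log2 fold change above 0 and 11 below (median -0.11), and 0 passed an adjusted p of 0.05. *Lamtor5*, a subunit of the Ragulator scaffold, had FPKM of 88.4, 92.2 and 89.1 in Control and 70.7, 75.1 and 74.2 in KSPAPN (log2 fold change -0.29, SE 0.081, adjusted p = 0.0923). *Mtor*, the kinase itself, had 27.9, 24.4 and 24.1 in Control and 14.9, 20.7 and 20.5 in KSPAPN (-0.44, SE 0.128, adjusted p = 0.0989). These were the 2 at an unadjusted p under 0.05, both lower (11.8% of the 17, against 18.7% of all genes tested). The transcription factors *Tfeb* (-0.28, adjusted p = 0.285), *Tfe3* (0.02, adjusted p = 0.956) and *Mitf* (0.01, adjusted p = 0.984) overlapped between groups.

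Of 16 autophagy genes, 9 were above 0 and 7 below (median 0.019), and 0 passed the adjusted threshold in edgeR. There were 1 higher and 3 lower at an unadjusted p under 0.05, against 18.7% of all genes tested (7.52% higher and 11.2% lower). *Map1lc3a*, which coats autophagosomes, had FPKM of 86.3, 86.1 and 73.7 in Control and 68.2, 54.4 and 54.6 in KSPAPN (-0.47, SE 0.117, adjusted p = 0.0676). The cargo receptor *Sqstm1* had 175, 183 and 163 in Control and 148, 152 and 149 in KSPAPN (-0.21, SE 0.089, adjusted p = 0.242). *Wipi2* was lower (-0.26, adjusted p = 0.143) and *Uvrag* higher (0.39, adjusted p = 0.0989) as values. Of 8 cathepsin inhibitors 3 were tested. *Cstb*, which binds cysteine cathepsins, had a log2 fold change of 0.22 (adjusted p = 0.265) and *Cst3*, the secreted cystatin C, one of -0.18 (adjusted p = 0.359), and 0 of the 3 passed the adjusted threshold.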
